A study of Mus musculus with 4 samples.

Results

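The regions described here are AGO2 clusters of newborn mouse brain that lie in 3' UTRs and hold a seed match to miR-124. AGO2 is the protein that carries a microRNA to its target mRNAs, and eCLIP crosslinks it to the bound RNA and sequences the piece that it protects. Members were regions of the deposited tables whose midpoint fell in an annotated 3' UTR on the same strand, outside coding sequence, and whose sequence, extended by 25 bases on each side, held GTGCCTT, the complement of bases 2 to 8 of miR-124-3p (a 7mer-m8 match). There were 938 such regions among 132924 in all, counting each region once: 509 of 86106 in the knockout-labelled IP and 430 of 46860 in the wild-type IP. The table that compares both IPs lists regions of the wild-type IP and held 430 members among 46862. The members covered 635 separate matches, called sites below, in 577 genes or groups of overlapping genes.

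The study asked whether FMRP, the RNA-binding protein made from Fmr1, alters the access of AGO2 to its sites. The samples were whole brain at postnatal day 0 with the background strain C57BL/6, labelled FMR1 ko or wild type; the knockout allele, the sex and the number of animals in a sample are not given in the sources used here. Each genotype had 1 AGO2 IP and 1 size-matched input, and KO-labelled and WT are used below for the labels. Log2 values in parentheses after reads are IP over input. With 1 library per genotype no difference between genotypes could be tested, and every interval below is an exact 95% binomial (Clopper-Pearson) interval that covers counting error only. The knockout-labelled IP listed 5 regions on Fmr1, of which 3 were coding, and the wild-type IP listed 2, of which 1 was coding; none was enriched, so the mRNA itself did not check the label.

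miR-124 is the microRNA for which neurons are best known: it is made as neurons leave the cell cycle and represses many mRNAs of progenitors and non-neuronal cells. Its seed, near its 5' end, pairs with the 3' UTR, and an A opposite the microRNA's first base turns a 7mer-m8 match into the stronger 8mer. AGO2 regions also covered the mature miR-124-3p of the 3 mouse miR-124 genes. Mir124a-3, Mir124a-2 and Mir124a-1 stood 7.26, 8.10 and 7.70 log2 units over input in the knockout-labelled IP. In the wild-type IP they stood at 10.54, 10.66 and 11.82. The inputs differed in depth, so these values are not compared between the libraries. Whether the reads can be assigned to 1 gene each was not tested.

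The 12 sites below make up the 10 most confident of each library, with overlap, and are shown because the heaviest values rest on them. Capitals mark the 7-base match and, where it is present, the A that makes an 8mer; the sequences are from RefSeq's copy of mm10 (GRCm38.p6) and run 5' to 3' on the mRNA strand.
Myadm (chr7:3298128-3298149, plus strand): tgcctgccttagctGTGCCTTA
Kcnk10 (chr12:98434707-98434728, minus strand): tcacactgagacacGTGCCTTA
Eya3 (chr4:132723928-132723949, plus strand): atgtaaaagtgactGTGCCTTA
Qser1 (chr2:104756952-104756973, minus strand): tttaccaccagttaGTGCCTTA
Limch1 (chr5:67055914-67055935, plus strand): tttcactaaaaattGTGCCTTA
Tsc22d4 (chr5:137759282-137759303, plus strand): ctttccctcacaatGTGCCTTt
Nfix (chr8:84705451-84705472, minus strand): ggccggccgacctaGTGCCTTg
Emc10 (chr7:44490548-44490569, minus strand): tctctccagcctctGTGCCTTt
Tnrc6b (chr15:80933527-80933548, plus strand): ctaaaaccgctttaGTGCCTTc
Nrp2 (chr1:62817016-62817037, plus strand): gtgttttttattaaGTGCCTTg
Gnai2 (chr9:107614452-107614473, minus strand): tttccagcgattccGTGCCTTg
Csf2ra (chr19:61224471-61224492, minus strand): tcataaaatccaacGTGCCTTc
Of these, Myadm, Kcnk10, Eya3, Qser1 and Limch1 had 8mers, and the other sites were followed by another base.

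The authors' files give each region a log2 ratio of IP over input and a -log10 p. From these values whole numbers of reads were recovered for 75411 of 86106 regions of the knockout-labelled IP and 45869 of 46860 of the wild-type IP. Regions not above input, or at the listed maximum of 400, gave no reads by themselves. A region is called enriched here when both values were at least 3, and strongly enriched when the -log10 p was at least 5 and the log2 ratio at least 4. Input reads outnumbered IP reads by a factor of 1.92 in the knockout-labelled pair and 6.34 in the wild-type pair. With 1 input read, 9 IP reads were therefore needed to be enriched in the knockout-labelled IP and 5 in the wild-type IP, so counts of enriched regions cannot be set against each other between the libraries.

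Within each library, 3' UTR regions with a miR-124 match were enriched more often than those without one. In the knockout-labelled IP 174 of 509 members were enriched, or 34.2% (30.1 to 38.5), against 7.75% of 10049 3' UTR regions without the match and 3.08% of all regions. In the wild-type IP 259 of 430 members were enriched, or 60.2% (55.4 to 64.9), against 36.0% of 8092 without the match and 24.1% of all regions. The intervals with and without the match did not overlap in either library. Strongly enriched members numbered 91 in the knockout-labelled IP (17.9%, against 2.96% without the match and 1.38% of all regions) and 158 in the wild-type IP (36.7%, against 15.9% and 8.62%).

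The members were also wider than other 3' UTR regions, and a wider region has more room for a match. Their median width was 56 bases in the knockout-labelled IP, against 46 bases without the match, and 47 in the wild-type IP, against 37. The median log2 over input was 3.26 with and 2.52 without the match in the knockout-labelled IP, and 4.92 and 4.25 in the wild-type IP. Counted over a fixed window of 50 bases on each side of the midpoint, which leaves the width out, the match was present in 17.5% of enriched and 3.59% of other 3' UTR regions of the knockout-labelled IP, and in 7.94% and 3.68% in the wild-type IP; this window was chosen after the data were seen.

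Read the other way, the share of 3' UTR regions that held the match climbed with enrichment. In the knockout-labelled IP it was 3.49% of regions that were not enriched, 18.3% (15.9 to 20.9) of enriched and 23.5% (19.3 to 28.0) of strongly enriched regions. In the wild-type IP it was 3.20%, 8.16% (7.23 to 9.17) and 11.0% (9.39 to 12.7). Sorted by recovered IP reads, the libraries lay closer to each other. The recovery used the p over input, and regions without recovered reads were left out of this sort. In the knockout-labelled IP the match was in 2.84% of regions with 1 to 4 reads, 13.1% of those with 10 to 19 and 14.7% (8.30 to 23.5) of the 95 regions with 50 or more. In the wild-type IP the same classes gave 3.30%, 8.96% and 21.8% (11.8 to 35.0, 55 regions). The share in heavily read regions was thus several times that in thinly read ones in both libraries. Median width also grew with reads, to 80 bases in the top class of the knockout-labelled IP and 69 in that of the wild-type IP.

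**Figure D1:**
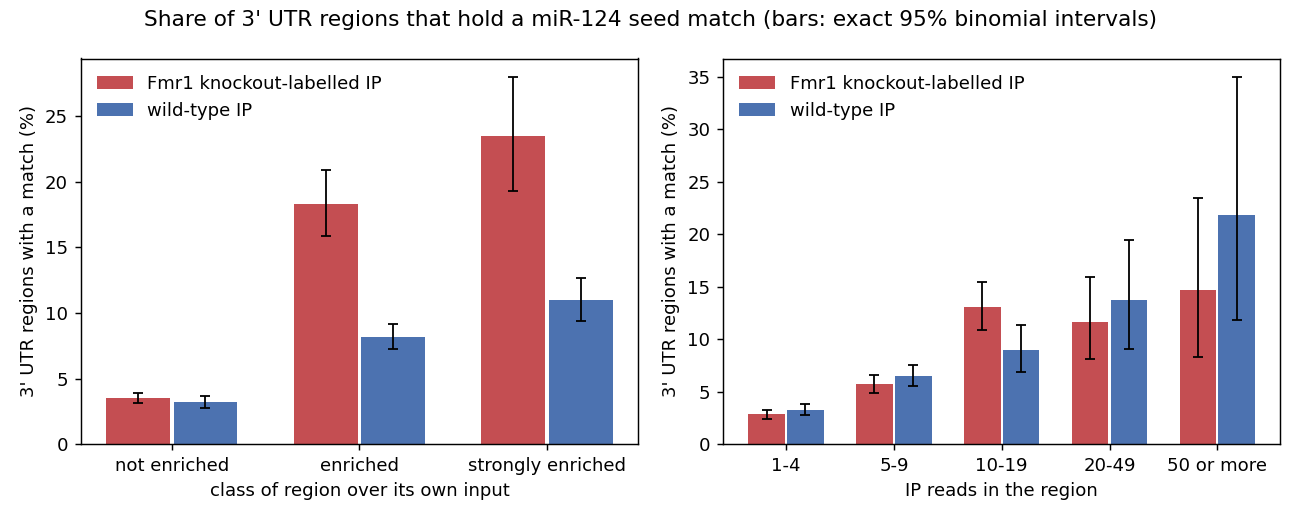
Share of 3' UTR regions that held a miR-124 7mer-m8 match (%), by enrichment over input (left) and by IP reads (right), in the Fmr1 knockout-labelled IP (red) and the wild-type IP (blue); bars are shares and lines exact 95% binomial intervals. The enriched class includes the strongly enriched one, and the right panel holds only regions with recovered reads. Both libraries start near 3% and climb, to 23.5% in the knockout-labelled IP and 11.0% in the wild-type IP among strongly enriched regions.

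The matches sat at the centre of the clusters. Around strongly enriched 3' UTR regions of the knockout-labelled IP there were 2.44 matches per kb of 3' UTR within 50 bases of the centre and 0.195 per kb at 200 to 300 bases. Around strongly enriched regions of the wild-type IP the values were 1.10 and 0.155 per kb. Regions that were not enriched had a lower peak, of 0.371 against 0.100 per kb in the knockout-labelled IP and 0.381 against 0.0919 in the wild-type IP. All annotated 3' UTRs together held 3322 matches, or 0.102 per kb. The flanks of regions that were not enriched lay near that level. Those of strongly enriched regions lay above it, on 13 matches in the knockout-labelled IP and 38 in the wild-type IP. These densities count every 3' UTR region of a class, with or without a match. In 515 of the 635 sites the match lay inside the cluster itself in at least one library.

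**Figure D2:**
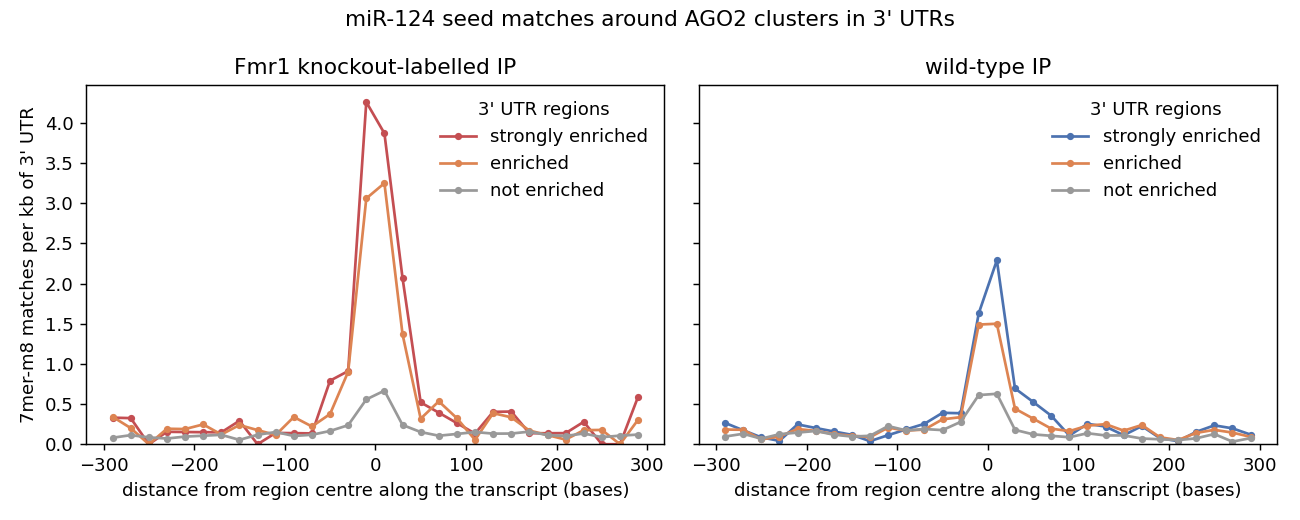
Density of miR-124 7mer-m8 matches (per kb of 3' UTR, bins of 20 bases) against distance from the centre of 3' UTR regions (bases, 5' to 3' along the transcript), in the Fmr1 knockout-labelled IP (left) and the wild-type IP (right). The enriched line includes the strongly enriched regions. In both panels each class peaks within 50 bases of the centre, highest for strongly enriched regions.

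An 8mer was more often under AGO2 than another 7mer-m8. In genes with a 3' UTR region in the knockout-labelled IP, 156 of 286 8mers lay under a region (54.5%, 48.6 to 60.4), against 345 of 1139 other matches (30.3%, 27.6 to 33.1). In the wild-type IP it was 123 of 256 (48.0%, 41.8 to 54.4), against 283 of 998 (28.4%, 25.6 to 31.3). For enriched regions the shares were 23.4% and 9.57% in the knockout-labelled IP and 30.1% and 17.7% in the wild-type IP. An A followed the match in 18.4% of all 3' UTR matches. It followed 38.1% (30.9 to 45.7) of those under an enriched region of the knockout-labelled IP and 30.3% (24.7 to 36.4) in the wild-type IP, against 14.1% and 15.7% of matches under no region in those genes. Under regions that were not enriched it followed 27.4% (22.6 to 32.6) in the knockout-labelled IP and 30.3% (23.1 to 38.2) in the wild-type IP, so the wild-type share was the same under enriched regions and under the others. The letter after the match was not part of the rule.

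**Figure D3:**
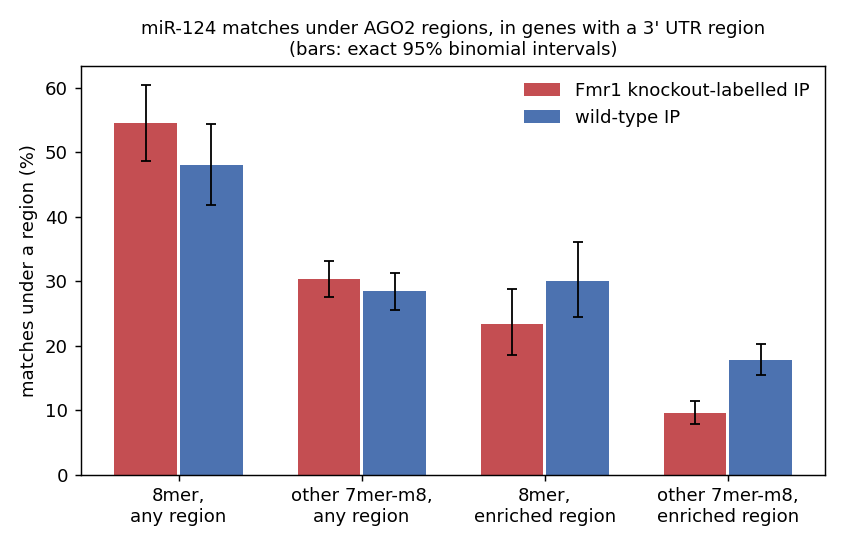
Share of miR-124 matches that lay under an AGO2 region (%), for 8mers and for other 7mer-m8 matches, under any region and under an enriched region, in genes with a 3' UTR region of the same library; red bars are the Fmr1 knockout-labelled IP, blue bars the wild-type IP, and lines exact 95% binomial intervals. The 8mer bars are higher in each of the 4 pairs, 54.5% against 30.3% for any region of the knockout-labelled IP.

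Matches under regions lay nearer to the stop codon than other matches in genes with a 3' UTR region. The 126 sites enriched in both libraries lay a median of 817 bases after the stop codon, and 1012 matches under no region lay at 1329 bases. Within 500 bases of the stop codon were 36.5% (28.1 to 45.6) of those sites and 20% (17.5 to 22.6) of the matches under no region. The 3' UTRs differed too, with median lengths of 2349 and 3139 bases. The share of A and U in the 60 bases around the match was 50% for sites enriched in both and 53.3% for matches under no region, with quartiles that overlapped widely (43.3 to 61.7 and 46.7 to 61.7).

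Members rarely carried the other sequences searched. A predicted G-quadruplex (4 runs of 3 or more G with loops of up to 7 bases) lay within 50 bases of 1.57% of members in the knockout-labelled IP and 1.86% in the wild-type IP, against 2.76% and 3.23% of 3' UTR regions without the match. Matches on the transcript strand to let-7a (CTACCTC), miR-9 (ACCAAAG), miR-15a (TGCTGCT) and miR-30a (TGTTTAC), other microRNAs of the brain, were in 1.96% to 2.55% of members of the knockout-labelled IP and 1.86% to 3.49% in the wild-type IP. Without the miR-124 match these shares were 2.25% to 3.56% and 2.08% to 3.11%. Among enriched regions of the knockout-labelled IP, let-7a matches were in 3.45% (1.28 to 7.35) of members and 9.76% (7.76 to 12.1) of regions without the miR-124 match. In the wild-type IP the same shares were 2.70% (1.09 to 5.49) and 4.22% (3.52 to 5.02), with intervals that overlapped. For miR-9, miR-15a and miR-30a the intervals among enriched regions overlapped in both libraries. These are matches of letters, not measured sites.

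Of the 635 sites, 502 lay under a region of the knockout-labelled IP and 407 under one of the wild-type IP, 274 of them under both. Enriched sites numbered 176 in the knockout-labelled IP and 254 in the wild-type IP. The 126 sites enriched in both lay in 119 genes. They are matches at clusters enriched in both libraries, and pairing with miR-124 was not tested. At these sites log2 over input ran from 3.03 to 8.39 in the knockout-labelled IP (median 4.64) and from 3.66 to 9.25 in the wild-type IP (median 5.83), and it was higher in the wild-type IP at 109 of 126. The wild-type input was also the deeper one, and its part in that count cannot be told apart from the genotype.

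The heaviest site was in Myadm, which encodes a membrane protein of the MARVEL family. Its 8mer, 458 bases after the stop codon, stood 6.44 over input in the knockout-labelled IP and 8.68 in the wild-type IP, where 453 IP reads met 7 input reads. In the wild-type cluster the knockout-labelled IP had 545 reads. The -log10 p was at 400, the highest value that the files list, in both libraries.

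The next sites by confidence were in Tsc22d4, Nfix, Kcnk10 and Emc10, with 12 input reads at most. Tsc22d4, a leucine-zipper regulator of transcription, had 228 IP reads to 2 input reads in the knockout-labelled IP (7.77) and 82 to 2 in the wild-type IP (8.02), at a match 22 bases after the stop codon. The wild-type values are those of a neighbouring region, which starts past the match; another wild-type region, with a lower -log10 p, holds it. Nfix, a nuclear factor I transcription factor of neural progenitors and glia, had 187 KO-labelled IP reads to 3 (6.90) and 96 WT IP reads to 12 (5.66). Kcnk10, the TREK-2 potassium channel, had 175 KO-labelled IP reads to 1 (8.39) and 191 WT IP reads to 2 (9.24), and Emc10, a subunit of the membrane protein complex of the endoplasmic reticulum, had 112 to 1 KO-labelled (7.75) and 96 to 1 WT (9.25). Nfix was the one among these with the higher ratio in the knockout-labelled IP, and its wild-type site had the most input reads.

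**Figure D4:**
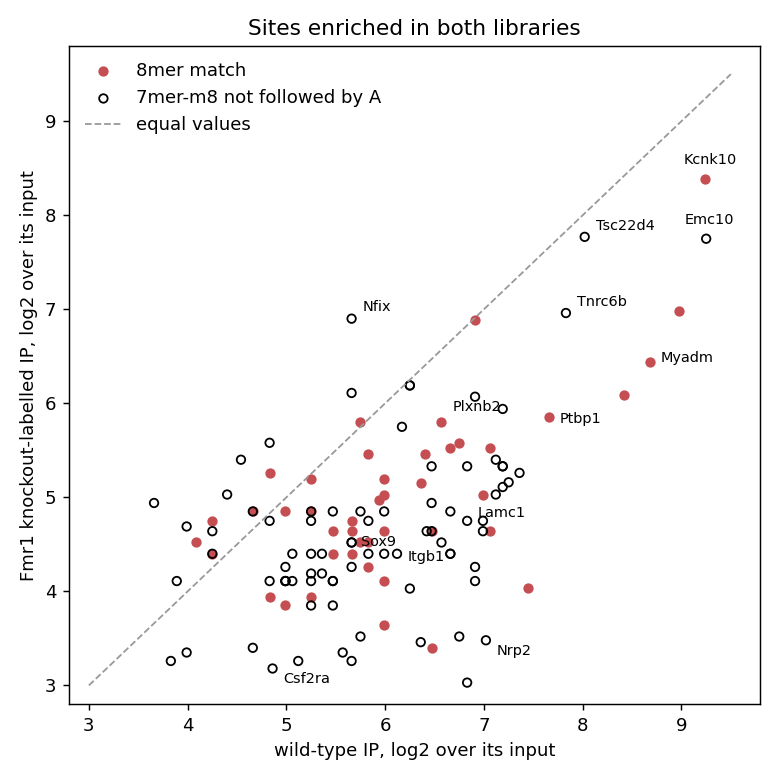
Log2 over input in the Fmr1 knockout-labelled IP (vertical) against the wild-type IP (horizontal) for the 126 miR-124 sites enriched in both, 1 point a site; red points are 8mers and open points other 7mer-m8 matches, and the dashed line marks equal values. Kcnk10, Tsc22d4 and Emc10 lie at the top right, and 109 points lie below the line.

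A second tier of sites had fewer IP reads. Qser1, a chromatin protein that guards DNA from methylation, had 71 IP reads in the knockout-labelled IP (6.09) and 54 in the wild-type IP (8.42). Eya3, a phosphatase and transcriptional coactivator, had 66 KO-labelled IP reads (6.98) and 79 WT IP reads (8.97), and Tnrc6b, the scaffold protein through which AGO2 silences mRNAs, had 65 KO-labelled IP reads (6.96) and 36 WT IP reads (7.83). Nrp2, a semaphorin receptor of growing axons, had 93 KO-labelled IP reads to 16 input reads (3.48) and 41 WT IP reads to 2 (7.02). Hipk1, a nuclear kinase, had 62 KO-labelled IP reads (6.89) and 38 WT IP reads (6.91), and Plxnb2, another semaphorin receptor, had 58 KO-labelled IP reads (5.80) and 15 WT IP reads (6.57). Csf2ra, a cytokine receptor subunit, was also among the most confident regions, with 165 KO-labelled IP reads to 35 input reads (3.18) and 64 WT IP reads to 14 (4.86), but the region listed for it did not hold the whole match in either library. The same was true of Qser1, Nrp2, Amotl2, Slc12a5, Qk, Man2a1 and the second site of Lrrc58. Of the 126 sites enriched in both, 11 took their values from a KO-labelled region that did not hold the whole match and 16 from such a WT region, and 8 sites did so in both libraries.

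The other genes with a site enriched in both were sorted by what their products do, after the genes were known, so the sizes of these groups are a description. The largest group, with 22 genes and 23 sites, was transcription and chromatin: besides Tsc22d4, Nfix, Qser1 and Eya3 it held Tsc22d1, Nfib, Nfic, Zbtb7a, Zfp451, Bcl11b, Sox9, Rfx3, Dlx5, Nr4a1, Mxd4, Aff4, Eaf1, Irf2bpl, Phf6, Cdk13, Zfp568 and Trp53bp1. Their log2 over input ran from 3.35 to 7.77 in the knockout-labelled IP and from 4.66 to 8.97 in the wild-type IP. Bcl11b, the transcription factor of deep-layer cortical neurons, had 32 KO-labelled IP reads (5.94) and 23 WT IP reads (7.19). Nfix had a second site in its 3' UTR, an 8mer with 37 KO-labelled IP reads (5.15) and 26 WT IP reads (6.36), so each of its sites was enriched in both libraries. Nfib had 16 KO-labelled IP reads (3.35) and 15 WT IP reads (5.57), and Nfic 22 KO-labelled IP reads (4.40) and 16 WT IP reads (6.66).

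The cell surface, adhesion and matrix group held 20 genes with 21 sites: Myadm, Itgb1, Lamc1, Col4a1, Vcan, Mfap2, Cd151, Ctnnd1, Pcdh8, Ptprd, Nrp2, Plxnb2, Adam19, Mdk, B4galt1, Cmtm4, Ednrb, Ece1, Tnfrsf22 and Csf2ra. Col4a1, a collagen chain of basement membranes, had 50 IP reads in the knockout-labelled IP (5.58) and 34 in the wild-type IP (6.75) at an 8mer. Ednrb, the endothelin B receptor, had 49 KO-labelled IP reads (4.97) and 29 WT IP reads (5.94), and Ece1, the enzyme that makes endothelin, had 20 KO-labelled IP reads (5.26) and 9 WT IP reads (4.83), also at 8mers. The region that covered both matches of Ctnnd1, which encodes p120-catenin, had 38 KO-labelled IP reads (6.19) and 36 WT IP reads (6.25); those matches lie 40 bases apart and a predicted gene, Gm28635, overlaps them. Vcan, a proteoglycan of the matrix, was among the weakest, at 3.26 KO-labelled and 5.12 WT.

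A group of 18 genes with 19 sites acts on small GTPases, actin and the shape of membranes: Rhog, Srgap1, Ssh1, Limch1, Myo10, Rap2b, Nras, Gnai2, Rragd, Rcc2, Arf2, Fnbp1, Fcho2, Amotl1, Amotl2, Frmd8, Flot2 and Strn. Gnai2, an inhibitory G protein subunit, had 39 KO-labelled IP reads (4.64) and 54 WT IP reads (6.42), and Limch1, which activates non-muscle myosin, had 43 KO-labelled IP reads (4.04) and 55 WT IP reads (7.45). Srgap1, a GTPase-activating protein downstream of Slit and Robo, had 30 KO-labelled IP reads (4.85) and 16 WT IP reads (6.66). Microtubules gave 5 genes, Tubb4a, Kif2a, Bicd2, Numa1 and Eml6, at 4.40 to 5.52 in the knockout-labelled IP and 3.99 to 6.83 in the wild-type IP.

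RNA binding and silencing gave 9 genes, Ptbp1, Qk, Ddx6, Tnrc6b, Zfp36l1, Zcchc24, Samd4b, Eif1ad and Zmat3, and 5 of their 9 sites were 8mers. Ddx6, an RNA helicase that acts downstream of AGO2 in mRNA repression, had 46 IP reads in the knockout-labelled IP (5.46) and 40 in the wild-type IP (6.40) at an 8mer. Kinases gave 7 genes, and 3 of these were the homeodomain-interacting kinases Hipk1, Hipk2 and Hipk3, each at an 8mer; the others were Pim1, Pim3, Pskh1 and Ip6k2. Hipk2 was the weakest of the 3 (12 KO-labelled IP reads at 4.52, 8 WT IP reads at 4.08), and Hipk3 had 24 KO-labelled IP reads (5.52) and 21 WT IP reads (7.06). Channels and transporters gave 6 genes: Kcnk10, the chloride cotransporters Slc12a2, Slc12a5 and the related Slc12a9, the mitochondrial citrate carrier Slc25a1, and Slc44a5. Slc12a5, the KCC2 transporter that lowers chloride in neurons, had 22 KO-labelled IP reads (5.40) and 11 WT IP reads (4.54), and Slc12a2, NKCC1, which raises it, had 10 KO-labelled IP reads (4.26) and 5 WT IP reads (4.99).

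Enzymes and parts of organelles gave 18 genes with 19 sites, among them Emc10, Reep3, Hadha, Aldh4a1, Mtr, Cers2, Cpox, Man2a1, Thop1, Rnpepl1, Abhd10, Pxmp4, Pgrmc2, Tor1aip2, Gga2 and Rgp1. Gga2, an adaptor of the trans-Golgi network, had 28 KO-labelled IP reads (5.75) and 34 WT IP reads (6.17). The remaining 14 genes were Lrrc58, Lrch4, Klhl21, Dcun1d2, Ctxn1, Hs1bp3, Smco4, Pttg1ip, Pcnx, Anks1, Dzank1, 2510039O18Rik, Trp53inp2 and Nynrin. Lrrc58 had one 8mer (29 KO-labelled IP reads at 5.80, 17 WT IP reads at 5.75) and one other site (15 KO-labelled IP reads at 4.85, 17 WT IP reads at 5.75), both enriched in both libraries.

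Of 30 genes known from earlier work as targets of miR-124, 14 had a member, and 6 were enriched at the same site in both libraries: Ptbp1, Rhog, Itgb1, Lamc1, Sox9 and Zfp36l1. Of the 30, 22 had some 3' UTR region in the knockout-labelled IP and 16 in the wild-type IP, against 4479 and 3679 of 21911 protein-coding genes. Among genes with a 3' UTR region, 14 of 22 known targets had a member in the knockout-labelled IP (63.6%) and 9 of 16 in the wild-type IP (56.2%). All protein-coding genes with such a region gave 10.6% and 10.5%. Over all 21911 protein-coding genes, with or without such a region, 592 had a member and 120 were enriched in both at the same site. The sites of the 6 known targets named above are shown so that they can be set against the known ones.
Ptbp1 (chr10:79863518-79863539, plus strand): catagccgctttctGTGCCTTA
Rhog (chr7:102239586-102239607, minus strand): gtctgcccccagctGTGCCTTA
Rhog (chr7:102239615-102239636, minus strand): cccccccaccaattGTGCCTTg
Itgb1 (chr8:128733114-128733135, plus strand): caatcttgttttaaGTGCCTTt
Lamc1 (chr1:153219060-153219081, minus strand): tggcccttttcaatGTGCCTTc
Sox9 (chr11:112786510-112786531, plus strand): ctagaacattcactGTGCCTTt
Zfp36l1 (chr12:80109221-80109242, minus strand): acagaagcaacttaGTGCCTTg
Of these 7 matches the one in Ptbp1 and one in Rhog are 8mers.

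Ptbp1 encodes the splicing repressor whose loss switches splicing to its neuronal form. Its site had 30 IP reads to 1 input read in the knockout-labelled IP (5.85) and 32 to 1 in the wild-type IP (7.66). Rhog, a small GTPase that acts on actin, has its matches 29 bases apart and under one cluster in each library, with 15 KO-labelled IP reads to 1 (4.85) and 12 WT IP reads to 3 (4.66). Itgb1, the integrin beta 1 chain, had 11 KO-labelled IP reads (4.40) and 11 WT IP reads (6.12, in a region that ends before the match), and Lamc1, a laminin chain, had 14 KO-labelled IP reads (4.75) and 18 WT IP reads (6.83). Sox9, a transcription factor of stem cells and glia, had 14 KO-labelled IP reads (4.75) and 9 WT IP reads (5.83), and Zfp36l1, which destabilises mRNAs with AU-rich elements, had 15 KO-labelled IP reads (3.26) and 8 WT IP reads (5.66). These counts were low beside those of Myadm or Kcnk10, with 1 to 3 input reads at each site.

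The other 8 known targets with a member had no site enriched in both. In the knockout-labelled IP, Lhx2 (9 IP reads, 4.11), Plod3 (10, 3.26), Rock1 (11, 4.40) and Tead1 (10, 4.26) were enriched and had no region at the match in the wild-type IP. In the wild-type IP, Ago1 (10 reads, 5.99) and Slc16a1 (7 reads, 4.47) were enriched; the knockout-labelled IP had 9 reads at Ago1 (3.11) and 5 at Slc16a1 (3.26). Iqgap1 and Vamp3, with at most 6 reads a site, were enriched in neither, although 3 matches of Vamp3 lay under regions.

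The PTB family was covered beyond Ptbp1. Ptbp2, the neuronal paralog, had an 8mer with 15 IP reads in the knockout-labelled IP (4.85) and no region there in the wild-type IP, and Ptbp3 had 2 sites of 4 to 5 reads in either library, none enriched. Qk, the quaking RNA-binding protein, had an 8mer enriched in both (15 KO-labelled IP reads at 3.85, 5 WT IP reads at 4.99) and a second 8mer with 13 reads in the knockout-labelled IP and no wild-type region. Fxr2, a paralog of Fmr1, had 3 reads in the knockout-labelled IP (2.52) and 7 in the wild-type IP (5.47), and it was enriched in the wild-type IP. In all, 5 of 34 splicing and RNA-binding genes had a member. Among the genes with a 3' UTR region that share was 5 of 31 KO-labelled and 5 of 26 WT, against 475 of 4479 (10.6%) and 385 of 3679 (10.5%) protein-coding genes.

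On the other lists, 8 of 36 transcription factors of neural development had a member. Bcl11b, Nfib, Nfix and Sox9 were enriched in both, Cux1, Nfia and Tcf4 in the wild-type IP at 5 to 6 IP reads, and Lhx2 in the knockout-labelled IP. Of 17 genes of the silencing machinery 4 had one: Ddx6 and Tnrc6b were enriched in both, Ago1 in the wild-type IP, and Ago2, with 4 reads in the knockout-labelled IP (2.94), in neither. Of 34 adhesion, matrix and cytoskeleton genes 8 had a member; beyond those above, Myh10 (6 reads) and Tln1 (7 reads) were enriched in the wild-type IP and Myh9 in neither. Among 32 synapse and channel genes Kcnk10, Gria2 and Gria3 had one, which is 3 of the 28 with a KO-labelled 3' UTR region (10.7%) and 3 of the 26 with a WT one (11.5%), close to all protein-coding genes. Gria2, an AMPA receptor subunit, had 14 KO-labelled IP reads (2.75) and 9 WT IP reads (4.83). Of 26 axon guidance genes Nrp2 and Sema6a had one. Among genes with a 3' UTR region, 7 of 28 KO-labelled and 7 of 25 WT transcription factors had a member. The silencing list gave 4 of 9 KO-labelled and 3 of 9 WT, and the adhesion list 8 of 25 and 6 of 24. These shares lay above those of all protein-coding genes, 10.6% and 10.5%. Axon guidance, at 2 of 21 and 2 of 16 (9.52% and 12.5%), lay close to them. The lists are small, and these differences were not tested.

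None of the 25 genes of the REST complex and chromatin list had a member; 17 had some 3' UTR region in the knockout-labelled IP and 12 in the wild-type IP. None of 12 neuron markers had a member, and 11 of them had a KO-labelled 3' UTR region and 10 a WT one. At the share of all protein-coding genes, 10.6% and 10.5%, lists of these sizes would hold few members, and nothing is read from these counts. All 12 neuron markers had exonic AGO2 regions in both libraries, and of 12 markers of neural progenitors 12 KO-labelled and 10 WT did. Exonic regions were on 1 (KO-labelled) and 2 (WT) of 7 markers of microglia, on 7 (KO-labelled) and 4 (WT) of 8 of vessel cells, and on 3 (KO-labelled) and 2 (WT) of 6 of erythroid cells. They were on 7 (KO-labelled) and 5 (WT) of 7 markers of astrocytes and on 6 (KO-labelled) and 2 (WT) of 7 of the oligodendrocyte lineage. Among these marker lists Vim of the progenitors alone had a miR-124 member (5 reads in each IP, 0.94 KO-labelled and 4.99 WT). In whole brain, more cells of a type and more RNA per cell cannot be told apart.

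Some genes had more than one match under a region. Of the 577, 46 had at least 2 sites and 7 had 3 or more: Edem1, Pskh1, Srgap1, Trib3, Vamp3, Wasf2 and Tnfrsf22. Tnfrsf22, a decoy receptor for TRAIL, had 7 in 2 stretches, within which neighbours lay 52 or 57 bases apart. One of its sites was enriched in both libraries, with 9 KO-labelled IP reads (4.11) and 5 WT IP reads (4.99). Wasf2, which drives actin branching, had 4 sites, of which one was enriched in the knockout-labelled IP (9 reads) and another in the wild-type IP (7 reads). Pskh1 had 3, all enriched in the wild-type IP at 5 to 17 reads and one in the knockout-labelled IP at 12.

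Matches within 100 bases of each other lay in 8 genes. Those of Ctnnd1, Klhl21 (92 bases), Lrch4 (100) and Rhog were enriched at both matches in both libraries. For Ctnnd1, Klhl21 and Rhog these are the values of 1 region in each library, counted for both matches, and the second match of Klhl21 lay outside its KO-labelled region. Lrch4 had a KO-labelled region for each match, and its WT values are those of 1 shared region that held neither match whole. Those of Scn2b (10 bases), Trib3 (29) and Vamp3 (65) were not, with fewer reads.

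The enriched members of the libraries overlapped in part. Of the 174 in the knockout-labelled IP, 127 overlapped an enriched region of the wild-type IP (73.0%, 65.7 to 79.4), against 66.6% (63.2 to 69.9) of enriched 3' UTR regions without the match. Of the 259 in the wild-type IP, 131 overlapped an enriched region of the knockout-labelled IP (50.6%, 44.3 to 56.8), against 18.3% (16.9 to 19.7) without the match. The wild-type members thus met an enriched region of the other library more often than wild-type regions without the match, beyond counting error. In the knockout-labelled IP the intervals overlapped. With the 953 most confident 3' UTR regions taken from each library, the shares were 52.5% in the knockout-labelled IP (51.6% without the match) and 79.4% in the wild-type IP (47.9% without it).

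Some sites were enriched in one library and had no region in the other. The knockout-labelled IP had 29 such sites, led by Vat1 (31 IP reads, 5.89), Ube2o (18, 5.11), Gga2 at a second match (16, 4.94), Maml1 (15, 4.85), Ptbp2 and Qk. The wild-type IP had 53, led by Plec (19 reads, 6.91), Stt3a (16, 6.66), Vldlr (13, 5.36), Btg2 (11, 6.12), Marveld1 (11, 6.12) and Sept8 (10, 5.99). Counted by region, 85.6% of enriched members of the knockout-labelled IP overlapped some wild-type region, against 77.5% of enriched 3' UTR regions without the match. For the wild-type IP the shares were 80.7% and 48.2%, with intervals that did not overlap. Enriched members of the wild-type IP thus lacked a counterpart less often than its other enriched 3' UTR regions. In the knockout-labelled IP the intervals overlapped (79.5 to 90.5 with the match and 74.4 to 80.4 without it). In the authors' deposited table the knockout-labelled IP had 5 reads in the wild-type region on Plec, 2 on Stt3a, 1 on Vldlr, 7 on Btg2, 9 on Marveld1 and 3 on Sept8, at a depth 2.28 times that of the wild-type IP; a listed 1 can stand for 0. Wild-type reads at the sites of the knockout-labelled IP alone are not given by any table.

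Log2 values in the authors' deposited table have wild type on top, so positive ones are higher in wild type. Among its members with 20 or more reads in both IPs together, 13 of 124 were higher in wild type (a listed -log10 p of at least 3 and log2 of at least 1), or 10.5%, against 18.5% of all 3614 regions with as many reads, microRNA genes included, and 8.77% of the 3123 outside microRNA genes; after centring on regions outside microRNA genes 8 were. The share was 14% of 793 3' UTR regions without the match. With the p recomputed from the recovered reads in both directions, 0 of the 124 members were lower in wild type, as were 0 of the 793 3' UTR regions without the match and 80 of the 3123 regions outside microRNA genes (2.56%). Over all regions with no read limit 0.174% were lower and 3.35% higher by that p. In the authors' deposited table without a read limit 3.39% of regions were higher in wild type.

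Over these 124 members the authors' deposited table had a median log2 of 0.68 (quartiles 0.19 and 1.19), with 102 above 0 and 22 below. It was 0.77 over 3' UTR regions without the match and 0.38 over 3123 regions outside microRNA genes. Members therefore lay 0.30 above the regions at large and did not stand above other 3' UTR regions. Every one of these regions was called in the wild-type IP, and the part of that choice in the values was not tested. With no read limit the median over all 430 members was 1.19, against 2.00 without the match, and the medians grew as reads fell.

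The heavy sites lay on both sides of 0, from -0.23 to 1.31. In the authors' deposited table Myadm stood at 0.92 (545 reads in the knockout-labelled IP, 453 in the wild-type IP), Kcnk10 at 1.31 (176 KO-labelled reads, 191 WT) and Emc10 at 0.95 (113 KO-labelled reads, 96 WT). Tsc22d4 stood at -0.23 (219 KO-labelled reads, 82 WT), Nfix at 0.15 (197 KO-labelled reads, 96 WT), Csf2ra at -0.19 (166 KO-labelled reads, 64 WT) and Nrp2 at -0.01 (94 KO-labelled reads, 41 WT) in the authors' deposited table. In the authors' deposited table the known targets Ptbp1 (31 KO-labelled reads, 32 WT, log2 1.23), Lamc1 (15 KO-labelled reads, 18 WT, log2 1.45), Rhog (16 KO-labelled reads, 12 WT, log2 0.77) and Itgb1 (7 KO-labelled reads, 11 WT, log2 1.84) lay above 0 at their sites enriched in both libraries. Another match of Itgb1 had a log2 of -1.13, so that gene lay on both sides of 0.

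The highest values with 20 or more reads in the authors' deposited table were those of Plec, a cytoskeletal linker (3.11, with 5 reads in the knockout-labelled IP and 19 in the wild-type IP), Slc12a9 (2.11, 10 KO-labelled reads and 19 WT), Susd6 (2.08, 7 KO-labelled reads and 13 WT), Mfap2 of elastic fibres (1.98, 11 KO-labelled reads and 19 WT) and Rnpepl1 (1.77, 14 KO-labelled reads and 21 WT). Adam19, Ip6k2, Pskh1, Gnai2 and Limch1 followed at 1.60 to 1.51. The lowest values in the authors' deposited table were those of Slc27a1, a fatty acid transporter (-0.98, 18 KO-labelled reads and 4 WT), Plxnb2 (-0.63, 53 KO-labelled reads and 15 WT), Zcchc24 (-0.55, 20 KO-labelled reads and 6 WT), Qk and Clip3 (-0.49 each), and Nynrin, Hadha, Arf2, Cd151 and Aff4 at -0.46 to -0.31. Apart from Plxnb2, Gnai2 and Limch1 these extremes rest on at most 25 reads in an IP, and with 1 library per genotype they are values of these libraries.

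**Figure D5:**
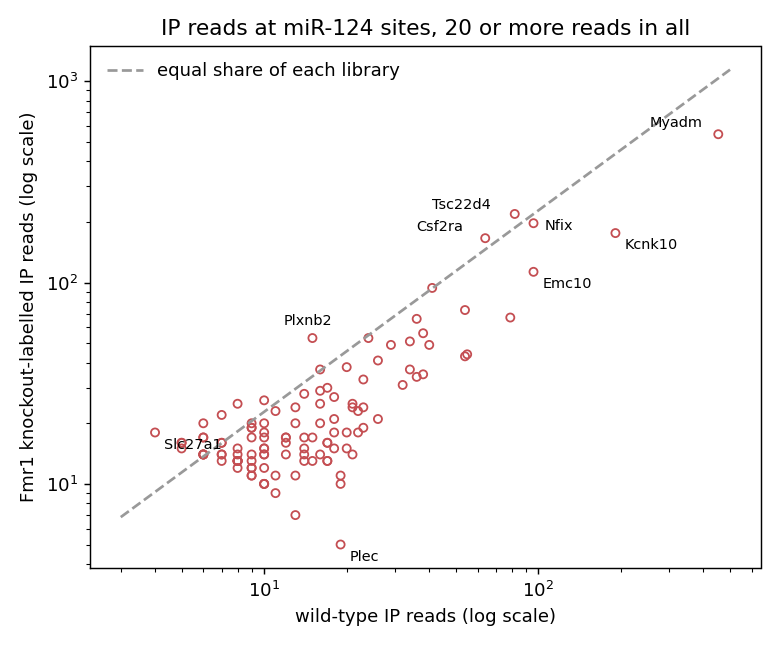
IP reads (log scales) in the Fmr1 knockout-labelled IP (vertical) and the wild-type IP (horizontal) for the 118 wild-type regions that best covered a miR-124 site and had 20 or more reads in both IPs together; the dashed line marks an equal share of each library, at a depth ratio of 2.28. Tsc22d4, Nfix and Csf2ra lie close to the line, Kcnk10 and Emc10 below it, Plec far below it, and Plxnb2 and Slc27a1 above it.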

How the data were processed

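AGO2 eCLIP was done on whole brain with 1 IP and 1 size-matched input per genotype. Per the labels' protocols, the authors trimmed reads with Cutadapt 1.15, removed reads that mapped to mouse repeats and mapped the rest to mm10 with STAR 2.6.0c, removed duplicates with UMI tools 5.2, and called clusters in each IP with CLIPper 1.4. Removing repeat reads lowers what can be seen in repeated sequence. Per the labels' protocols the deposited tables set read density over input, and each region has a log2 ratio and a -log10 p-value; the -log10 p is listed up to 400. The deposited comparison table holds the log2 of the wild-type IP over the knockout-labelled IP; how it was made is not given in the sources used here.

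Members were found with GENCODE M21 and the GRCm38.p6 sequence (pysam 0.24.0). The miR-124 seed was read from the genome at the 3 RefSeq loci. Reads were recovered as the whole-number ratio, with a denominator of up to 1000, whose p met the listed one within 1% (scipy 1.17.1): 99.97% of the knockout-labelled and 99.97% of the wild-type ratios were found, and wild-type reads were equal in 42616 of 42616 regions of both tables. A found ratio gave reads only where its p was usable, in 75411 of 86106 knockout-labelled and 45869 of 46860 wild-type regions. An input count of 0 is written as 1. The method was tested on simulated data. No test was run between genotypes. Genes were named by the rule fixed for this report: the 10 most confident sites of each library, the sites enriched in both, the 10 highest and lowest in the comparison, listed genes, genes with 3 or more sites and heavily read 8mers. Members and lists were chosen with earlier results of these data known. A few genes that the rule names are not reported here.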

Additional observations from a re-analysis of the deposited data

Results flagged for a closer look

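In introns and coding sequence, the miR-124 match was also more frequent in enriched regions, a signal in regions that the comparisons above did not use. Among intron regions the match was in 21.3% (17.4 to 25.7) of enriched regions of the knockout-labelled IP, against 2.21% of regions that were not enriched, and in 3.97% (3.37 to 4.64) in the wild-type IP, against 2.22%. Among coding regions it was in 7.62% (5.50 to 10.2) in the knockout-labelled IP, against 1.06%, and in 3.10% (2.51 to 3.79) in the wild-type IP, against 1.18%. In 5' UTRs of the wild-type IP it was in 0.844% of enriched regions, against 0.941% of the others, and in non-coding exons of the knockout-labelled IP in 1.32%, against 1.96%. The other library was higher in each kind, with intervals that overlapped. It had 2.53% (0.694 to 6.35) against 0.56% (0.338 to 0.874) in 5' UTRs of the knockout-labelled IP. In non-coding exons of the wild-type IP it had 2.09% (1.25 to 3.29) against 1.18% (0.649 to 1.98). The difference between the libraries was not tested, and the depth of the inputs differs between them.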

How the results depend on the processing

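No paired analysis was possible because each genotype had 1 IP and no replicate number was shared by more than 1 pair of libraries. Of the 41 alternatives computed, 22 stayed within the counting error or within 1.5 times the count, and 19 moved. Counts and shares have no sign to reverse. The median log2 of wild type over knockout-labelled has one, and it kept its sign in each alternative.

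Members numbered 162 in the knockout-labelled IP and 135 in the wild-type IP when only 8mers counted, and 1204 and 955 with 6mers (bases 2 to 7). Enriched members numbered 91 and 158 under limits of 5 and 4, and 69 and 79 with 8mers only. The share of enriched 3' UTR regions with the match was 7.24% and 2.49% for 8mers only; it was 6.78% in the wild-type IP without the extension and 11.2% there when the 953 most confident 3' UTR regions of each library were taken (16.6% in the knockout-labelled IP). With these 953 regions the overlap between libraries was 52.5% in the knockout-labelled IP and 79.4% in the wild-type IP, so the order of the libraries turned. The median log2 of wild type over knockout-labelled was 1.19 with no read limit and 0.30 after centring on regions outside microRNA genes. Members higher in wild type numbered 20 with no read limit, 8 after centring and 6 with 8mers only. Depth limits most sites: the median site enriched in both had 16 IP reads in the knockout-labelled IP and 13 in the wild-type IP.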

Other observations

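Matches to miR-124 under clusters in coding sequence and introns were enriched in both libraries in a set of genes that the account of 3' UTRs leaves out. Of 40 enriched coding regions with the match in the knockout-labelled IP, 29 overlapped an enriched wild-type region with the match. The same share was not computed for coding or intron regions without the match, so the overlap counts have no background beside them. The first of them by -log10 p was in Kdm6b, a histone H3 lysine 27 demethylase, at 4.96 over input in the knockout-labelled IP and 8.14 in the wild-type IP (311 IP reads to 7 input reads). Pcdh1, a protocadherin, had regions of 241 and 174 IP reads in the knockout-labelled IP (4.53 and 4.92), which met wild-type regions of 220 and 113 reads (8.86 and 6.48). Lsm14b, a partner of Ddx6 in mRNA repression, had 83 knockout-labelled IP reads (4.51) and 59 wild-type IP reads (6.22), Med14, a subunit of Mediator, had 58 (5.80) in the knockout-labelled IP and 36 (6.25) in the wild-type IP, and Kmt2a, a histone H3 lysine 4 methyltransferase, had 47 (4.17) in the knockout-labelled IP and 44 (5.54) in the wild-type IP. Mllt3 and Nacad were also among them.

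In introns 49 of 86 such regions were shared, with adjoining regions of one stretch counted separately, as in 9530036O11Rik and Slc44a5. They were led by Prpf6, a splicing factor (82 reads, 4.98 in the knockout-labelled IP and 62 reads, 8.62 in the wild-type IP), Farp1 (68 reads, 5.03 knockout-labelled and 52 reads, 7.36 wild-type), the non-coding gene 9530036O11Rik (52 reads, 6.64 knockout-labelled and 53 reads, 8.39 wild-type) and Slc44a5 (50 reads, 6.58 knockout-labelled and 14 reads, 5.47 wild-type). Slc44a5 also had a 3' UTR site enriched in both libraries.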
